A study of Rattus norvegicus with 30 samples.

Results

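Kidney gene expression of 5-day-old pups whose dams ate little protein while pregnant (D5-LP) was compared with that of pups of the same age from dams on a control diet (D5-CN), on 10 of the 30 arrays of the series, 5 for each group, as given by the sample labels. All pups were male rats of the stroke-prone spontaneously hypertensive strain (SHRSP), a genetic model of hypertension that both groups share. The dams of D5-LP pups received a diet with 9% casein and the dams of D5-CN pups a diet with 20% casein, in both cases during pregnancy only, since every dam was given a commercial diet after delivery. Kidneys were collected whole on day 5, before weaning. The other 20 arrays hold kidneys of the same diets at day 10 and day 28 and are used here only to set the day 5 differences beside those of the later ages. Diets were assigned to dams, but neither the labels nor the methods tell which litter a pup came from, and the methods speak of pooled RNA where the labels number biological replicates. The p-values therefore rest on the spread from array to array alone, part of which may be technical, and pups of 1 dam would count as independent. The hour of collection is not given in the sources used here.

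At this age the rat kidney is still forming nephrons. Under its capsule, tips of the branching ureteric bud carry the receptor tyrosine kinase RET and its co-receptor GFRA1, which receive GDNF from the surrounding nephron progenitors, and Wnt ligands from the bud and the stroma induce the progenitors to form new tubules. Deeper in the organ, glomeruli, vessels, interstitium and tubules mature at the same time. Whole kidney RNA mixes all of these cells, so that fewer cells of a type and less RNA per cell cannot be told apart. Maternal protein restriction in rats is known for a lower nephron number in the offspring.

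Levels are given on the log2 scale as deposited, and a difference is LP minus CN, so that a positive value means a higher level in D5-LP kidneys. Defining markers of the kidney were at high levels in both groups, with the phosphate transporter *Slc34a1* at 12.78 in D5-LP and 12.74 in D5-CN kidneys and the thick limb cotransporter *Slc12a1* at 12.73 and 12.68, both above 99.4% of all probe sets. The adrenal enzyme *Cyp11b1* lay at 3.69 in D5-LP and 3.63 in D5-CN kidneys, above 6.18% of the probe sets. Replicate arrays correlated at 0.993 or higher in D5-LP and 0.992 or higher in D5-CN, and the median SD within groups was 0.116. The arrays of the control group did not form 1 cluster, however. Along the first principal component, with 41.2% of the variance, D5-CN arrays 2 and 3 lay at 25.8 and 26.5, whereas D5-CN arrays 4 and 5 lay at −19.9 and −16.0. The D5-LP arrays spread along the same axis, from −22.6 for array 5 to 13.2 for array 4. Transcripts typical of liver followed it: *Apoa1*, an apolipoprotein, was at 4.68, 5.64, 5.69, 5.58 and 4.19 on the D5-LP arrays, against 4.75, 8.17, 7.57, 4.18 and 4.65 on the D5-CN arrays. Its high values were those of D5-CN arrays 2 and 3. The gene lists and the genes that moved most are therefore given also without D5-CN arrays 2 and 3 and without D5-CN arrays 4 and 5, settings that were chosen after the data were seen. The signal of control probe sets at the 3′ end less that at the 5′ end, a measure of RNA degradation, was 0.55 ± 0.07 in D5-LP and 0.54 ± 0.12 in D5-CN (SD, n = 5 each), and the groups did not differ beyond that spread (2-sided exact permutation test, p = 0.952). It was 0.46 and 0.40 on D5-CN arrays 2 and 3 and 0.58 and 0.54 on D5-CN arrays 4 and 5. Its highest value, 0.73, was that of D5-CN array 1, at −3.9 on the first component. Whether it goes with that component was not tested.

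Of 31042 probe sets, 2 passed limma's test at the threshold of 0.2 on the adjusted p, which is 0.00644% of those tested, and both were higher in D5-LP kidneys. At an unadjusted p under 0.05, 1465 probe sets were higher and 1076 lower, a split that turned to 1068 higher and 1614 lower when each array was centred on its median. The first was *Axin2*, a scaffold of the complex that degrades beta-catenin and itself a target gene of beta-catenin, so that it reads out and restrains Wnt signalling at once. *Axin2* was at 7.48, 7.55, 7.76, 7.61 and 7.46 on the D5-LP arrays, against 7.17, 7.05, 7.05, 7.06 and 6.94 on the D5-CN arrays. All 5 LP arrays lay above all 5 CN arrays. *Axin2* rose by 0.52 ± 0.07 (SE), or 1.43-fold (adjusted p = 0.127, and p = 0.00794 in the exact permutation test, the smallest that 5 against 5 allows). The second was *Col15a1*, the alpha chain of collagen XV, which ties basement membranes to the matrix below them. *Col15a1* was at 7.88, 8.01, 8.06, 7.89 and 7.84 on the D5-LP arrays, against 7.59, 7.35, 7.40, 7.47 and 7.54 on the D5-CN arrays, again without overlap. It rose by 0.47 ± 0.06 (SE), or 1.38-fold (adjusted p = 0.128), and another of its probe sets differed by 0.37 ± 0.10 (SE). Without D5-CN arrays 2 and 3 *Col15a1* differed by 0.40, and without D5-CN arrays 4 and 5 by 0.49. Both calls were lost without any 1 of D5-LP arrays 1 to 4 or D5-CN arrays 2, 3 and 5, although leaving out 1 array never moved the difference of *Axin2* beyond 0.47 to 0.55 or that of *Col15a1* beyond 0.44 to 0.50. They were kept without D5-LP array 5 or D5-CN arrays 1 or 4, where 67, 29 and 6 probe sets were called.

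**Figure D1:**
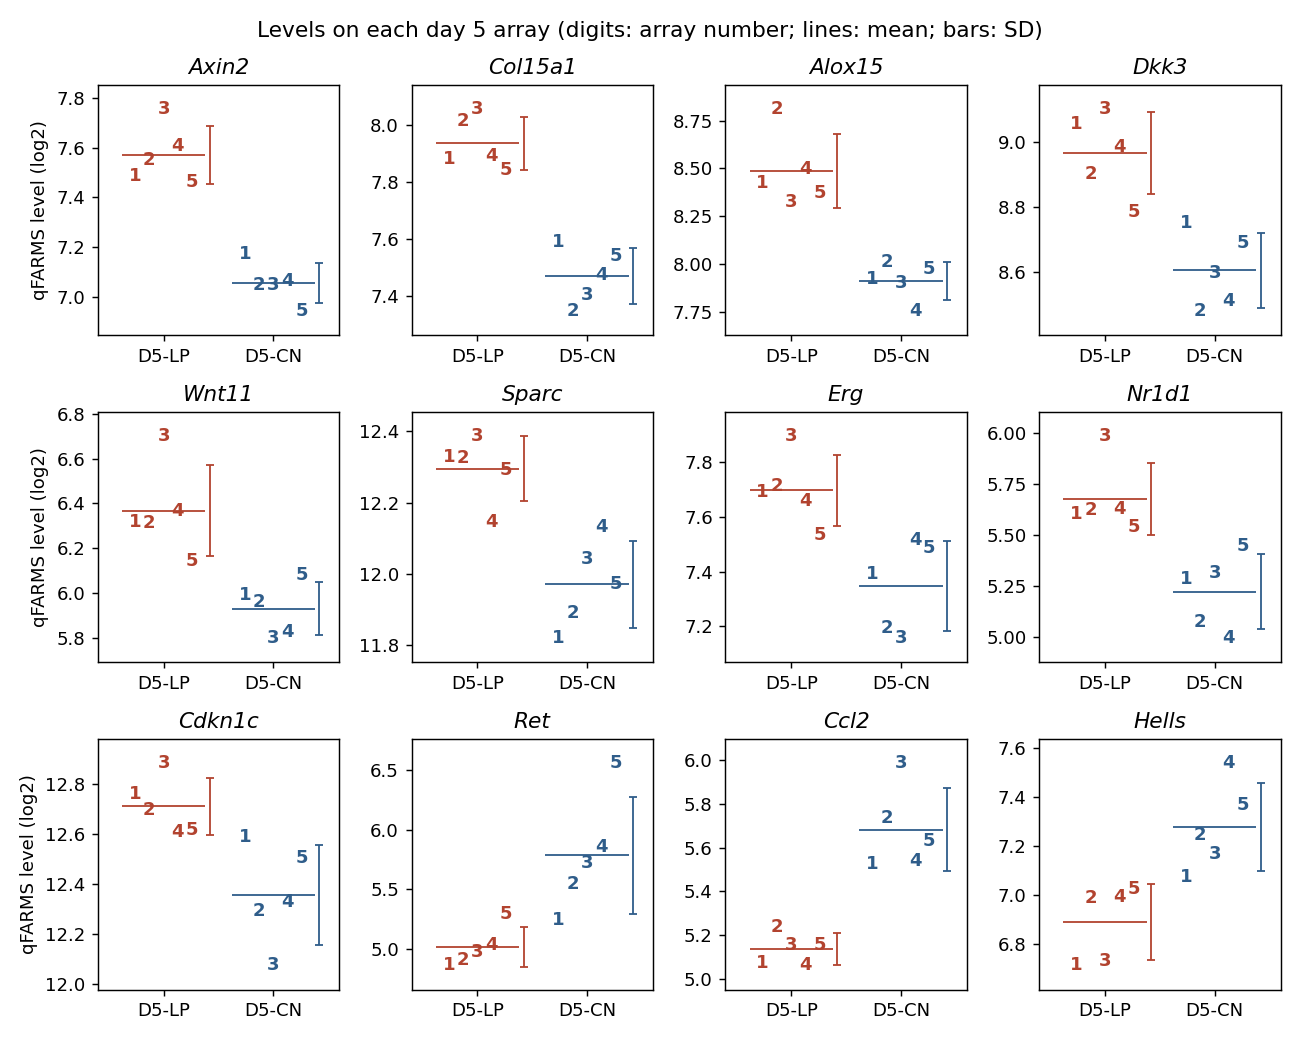
Deposited log2 level, a qFARMS summary of probe signals (vertical axis, own range for each gene) of 12 genes on the 5 D5-LP arrays (left, red) and the 5 D5-CN arrays (right, blue). Digits are array numbers, lines are means and bars are SD. The groups do not overlap for *Axin2*, *Col15a1*, *Alox15* or *Ccl2*, whereas *Ret* on D5-LP array 5 (5.30) is above D5-CN array 1 (5.25).

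The other genes with the smallest p among those higher in D5-LP kidneys did not pass the threshold. *Alox15*, a lipoxygenase that oxygenates arachidonic and linoleic acid, came closest, at 8.42, 8.81, 8.33, 8.50 and 8.37 on the D5-LP arrays, against 7.93, 8.01, 7.90, 7.76 and 7.98 on the D5-CN arrays. The groups did not overlap, and *Alox15* differed by 0.57 ± 0.09 (SE, adjusted p = 0.210). Genes ranked by p or by size are given at their probe set with the smallest p. The genes behind it were the integrin activator *Fermt2* (0.34, and 0.21 and 0.15 at brighter probe sets), the actin binding palladin gene *Palld* (0.47), the actin and phosphatase regulator *Phactr1* (0.60), the ephrin receptor *Epha3* (0.40) and the fibroblast and thymocyte surface protein *Thy1* (0.30). Others were *Tnik* (0.45 at its dimmest probe set and −0.03 to 0.10 at the 3 brighter ones), a kinase that acts with TCF and beta-catenin, *Apc2* (0.36), a relative of the tumour suppressor APC, the inhibitory myeloid receptor *Cd200r1* (0.42), the phospholipid flippase *Atp8b1* (0.44), *Ehd4* (0.31), which acts in endosome recycling, and *Alas2* (0.47), the first enzyme of haem synthesis in red cell precursors. A brighter probe set of *Atp8b1* differed by 0.14. The widest differences at an unadjusted p under 0.01 were those of the urea transporter *Slc14a1* (0.76 ± 0.16, SE), which is carried by red cells and the descending vasa recta, and of *Tmem132c* (0.67 ± 0.15). *Slc14a1* was at 7.16, 7.13, 7.37, 6.92 and 6.68 on the D5-LP arrays, against 6.54, 6.19, 5.76, 6.48 and 6.51 on the D5-CN arrays. The groups did not overlap at this probe set, whereas the other one of *Slc14a1*, which is dimmer, differed by 0.07. The brighter one differed by 0.54 without D5-CN arrays 2 and 3 and by 0.89 without D5-CN arrays 4 and 5. The acetyltransferase gene *Crebbp* (0.57, although its 3 brighter probe sets differed by −0.0039 to 0.13), *Armh4* (0.57), *Mmp9* (0.56), a gelatinase, and *Dpysl3* (0.53, and 0.04 at a dimmer probe set) completed the list.

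No probe set that was lower in D5-LP kidneys passed the threshold in the limma fit of the 10 arrays, where 1076 were lower at an unadjusted p under 0.05. The fit of all 30 arrays called 15 lower. Rank products, the method of the study, were run here on the day 5 arrays. They called 650 probe sets, 464 as higher and 201 as lower, so that some were called in both directions. *Ccl2*, the chemokine that draws monocytes, had the smallest p, with 5.07, 5.24, 5.16, 5.06 and 5.16 on the D5-LP arrays, against 5.52, 5.74, 5.99, 5.54 and 5.63 on the D5-CN arrays. It differed by −0.55 ± 0.08 (SE, adjusted p = 0.210), without overlap between the groups. *Atoh8*, a helix-loop-helix transcription factor, was at 6.62, 6.63, 6.60, 6.54 and 6.63 on the D5-LP arrays, against 6.82, 6.998, 6.91, 6.91 and 6.86 on the D5-CN arrays (−0.29 ± 0.05, SE, adjusted p = 0.287). These groups did not overlap either. The widest difference at an unadjusted p under 0.01 was that of *Ret* (−0.77), followed by the adenylyl cyclase *Adcy8* (−0.68) and *C1qtnf12* (−0.65). *Adcy8* differed by −0.77 and *C1qtnf12* by −0.74 without D5-CN arrays 2 and 3. Without D5-CN arrays 4 and 5 they differed by −0.46 and −0.41. *Slbp* (−0.53), which binds the stem-loop of histone mRNAs during DNA replication, the cytokine *Il1b* (−0.53), the collagen IX gene *Col9a1* (−0.51) and the potassium channel subunit *Kcne4* (−0.48) came next. *Ret*, *Adcy8* and *Ccl2* were dim, with means of 5.02, 4.78 and 5.14 in D5-LP and 5.78, 5.45 and 5.68 in D5-CN kidneys. The skeletal muscle gene *Myh3* was at 5.38 in D5-LP and 5.36 in D5-CN kidneys, above 28.8% of the probe sets. The remaining genes were *Hells* (−0.39), a chromatin remodeller, *Suv39h2* (−0.34), a histone H3 lysine 9 methyltransferase, *Troap* (−0.30), which acts at the mitotic spindle, *Rad1* (−0.25), part of the clamp that signals DNA damage, *Spata20* (−0.34, although a brighter probe set differed by −0.02), *Rbm12b* (−0.30), the dynein chain *Dync1i1* (−0.29), *Fbxo45* (−0.21), part of a ubiquitin ligase, and *Zbed4* (−0.17).

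Single genes rarely passed the threshold, so gene lists are described by counts over their measured members, each gene taken at its brightest probe set. Dimmer probe sets of the same gene did not always differ alike and are given for some genes only. The counts are read against all 14217 genes measured. Of these, 4.82% were higher and 4.02% lower in D5-LP kidneys at an unadjusted limma p under 0.05, 1.02% had all 5 LP arrays above all 5 CN arrays, 0.724% had all 5 below, and the median difference was −0.0043. Members of a list share cells and signals and are not independent of each other, and no list was tested as a set.

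**Figure D2:**
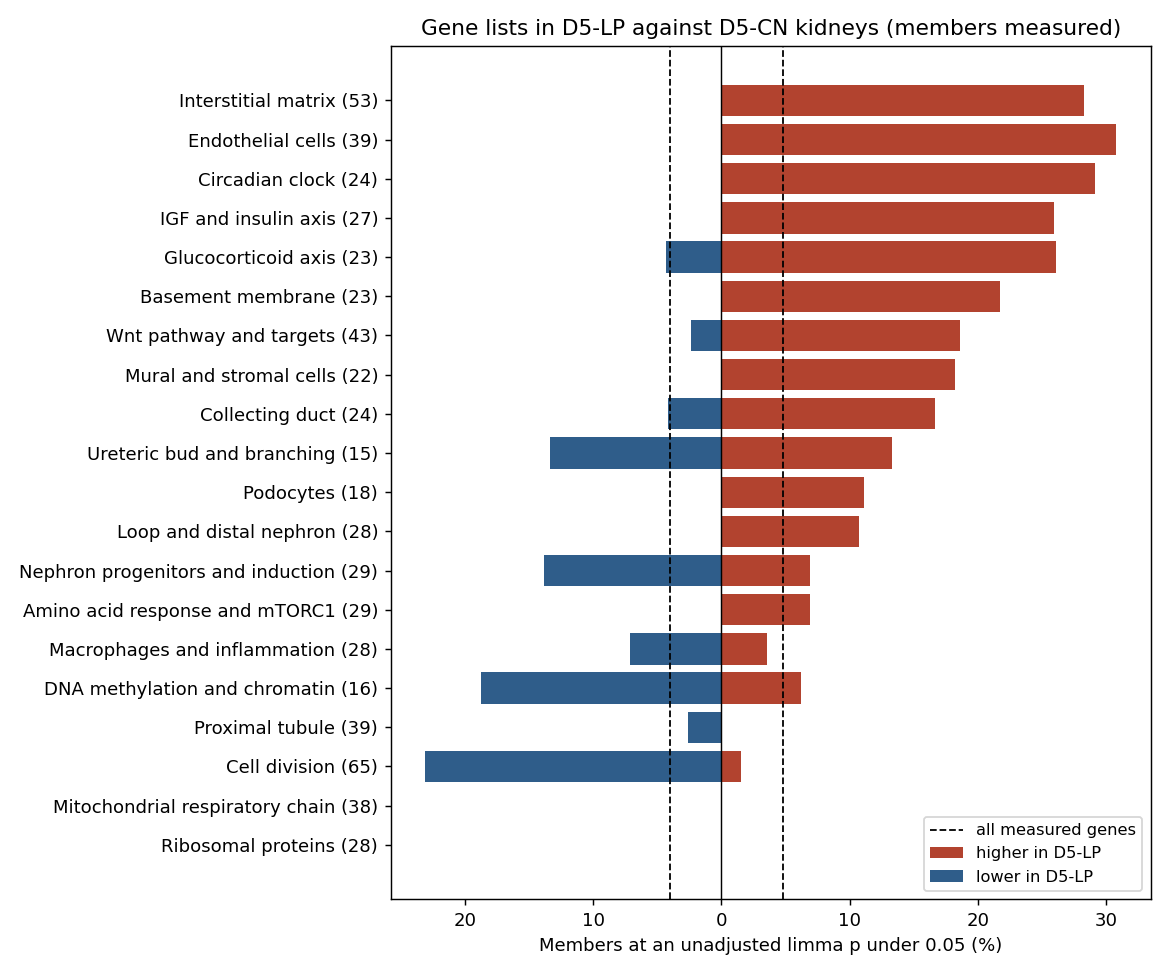
Share of the measured members of 20 gene lists (number measured in brackets) at an unadjusted limma p under 0.05, in percent, with members higher in D5-LP kidneys to the right (red) and members lower in D5-LP kidneys to the left (blue). Dashed lines are the shares over all 14217 genes, 4.82% higher and 4.02% lower. Endothelial cells have 30.8% of members to the right and cell division 23.1% to the left, whereas the respiratory chain and ribosomal proteins have none on either side.

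Of the 43 measured Wnt genes, 8 were higher (18.6%) and 1 lower (2.33%) at an unadjusted p under 0.05, and 4 had all LP arrays above all CN arrays. Feedback inhibitors and target genes made up 5 of the 8 out of 17 measured. They were *Axin2*, the secreted *Dkk3* (0.36 ± 0.07, SE), the membrane inhibitor *Apcdd1* (0.41 ± 0.10), the Dishevelled antagonist *Nkd1* (0.26 ± 0.08) and the secreted Frizzled mimic *Sfrp1* (0.23 ± 0.07). *Dkk3* was at 9.06, 8.90, 9.10, 8.99 and 8.79 on the D5-LP arrays, against 8.75, 8.48, 8.60, 8.51 and 8.69 on the D5-CN arrays, without overlap, although its 3 other probe sets differed by −0.14 to 0.02. The ligand of ureteric bud tips *Wnt11* was at 6.32, 6.31, 6.70, 6.37 and 6.14 on the D5-LP arrays, against 5.99, 5.96, 5.80, 5.82 and 6.08 on the D5-CN arrays (0.44 ± 0.09, SE, adjusted p = 0.345). These groups did not overlap either, and a dimmer probe set of *Wnt11* differed by 0.05. The noncanonical ligand *Wnt5a* differed by 0.32 ± 0.12, the kinase *Gsk3b*, which marks beta-catenin for degradation, by 0.28 ± 0.09, and *Rspo3*, which amplifies Wnt signals, by −0.20 ± 0.08. The list as a whole leaned on 2 control arrays: its mean level, less that over all 10 arrays, was −0.09 and −0.16 on D5-CN arrays 2 and 3, and the list median was 0.06 with all arrays and −0.01 without these. Without them 6 members were higher and 2 lower, and without D5-CN arrays 4 and 5 the counts were 11 and 2. Over the 17 feedback inhibitors and targets the median was 0.08 with all arrays. It was −0.02 without arrays 2 and 3, with 4 higher and 2 lower, and 0.18 without arrays 4 and 5, with 7 higher and 0 lower. *Axin2* itself differed by 0.51 without arrays 2 and 3 and by 0.48 without arrays 4 and 5.

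The promoter of *Axin2* is shown because the gene is a classical target of TCF and LEF factors, the DNA-binding partners of beta-catenin, and that of *Nkd1* because it was the only other of these genes with a match. The RefSeq sequences (build GRCr8) are the bases just before the gene start, on the strand of the gene, with matches to CTTTGAA or CTTTGAT in capitals. Both strands were searched.
Axin2, chr10:94398535-94398784, plus strand: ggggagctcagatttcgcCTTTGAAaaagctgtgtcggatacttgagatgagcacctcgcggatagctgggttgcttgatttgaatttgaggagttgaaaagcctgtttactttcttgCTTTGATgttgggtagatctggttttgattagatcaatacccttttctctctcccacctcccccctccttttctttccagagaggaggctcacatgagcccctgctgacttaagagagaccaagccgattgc
Nkd1, chr19:34722847-34723006, minus strand: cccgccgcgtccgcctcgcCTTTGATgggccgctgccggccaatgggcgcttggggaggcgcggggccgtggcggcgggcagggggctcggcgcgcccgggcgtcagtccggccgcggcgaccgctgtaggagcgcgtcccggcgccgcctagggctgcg
*Axin2* had 2 matches, which begin 232 and 132 bases before the start, and *Nkd1* had 1, which begins 141 bases before it. Of all 33469 promoters in the table, 7.58% held such a match in their 250 bases. In the Wnt list as a whole 2 of the 31 promoters found did (6.45%), so the list was not richer in the motif than other genes, and the matches are a description of sequence and not of binding.

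Genes of the ureteric bud tip and of nephron progenitors differed in both directions. *Ret* was at 4.86, 4.91, 4.97, 5.03 and 5.30 on the D5-LP arrays, against 5.25, 5.55, 5.72, 5.86 and 6.55 on the D5-CN arrays, so that only D5-LP array 5 reached the range of the controls. It differed by −0.77 ± 0.19 (SE, adjusted p = 0.378), and its 2 dimmer probe sets by −0.35 and −0.10. Without D5-CN arrays 2 and 3 it differed by −0.87 and without D5-CN arrays 4 and 5 by −0.49. *Gfra1* was at 7.73, 7.64, 7.53, 7.58 and 8.04 on the D5-LP arrays, against 7.87, 8.00, 7.96, 8.13 and 8.14 on the D5-CN arrays (−0.32 ± 0.09, SE). The RET target *Etv4* differed by −0.39 ± 0.25, with wide overlap, so of the 7 tip genes measured 6 lay below 0 and *Wnt11* above. Of these, 2 were lower at an unadjusted p under 0.05 with all arrays, 4 without D5-CN arrays 2 and 3 and 2 without D5-CN arrays 4 and 5, where *Etv4* differed by −0.08. Of the 8 stalk and pathway genes of the same list, 6 lay above 0, with a median of 0.18. At that p, 1 of them was higher and 0 lower. Their mean, less that over all 10 arrays, ran from −0.48 to 0.63 on the D5-LP arrays. On the D5-CN arrays it ran from −0.65 to 0.48, so the arrays of each group spread far wider than that median. Over all 15 genes of the list 2 were higher and 2 lower (13.3% each). The median of all 15 was −0.02, and 0.08 without D5-CN arrays 4 and 5. In the fit of all 30 arrays, which shares the spread of the 3 ages, *Ret* (adjusted p = 0.044), *Wnt11* (adjusted p = 0.064) and the progenitor factor *Eya1* (adjusted p = 0.166) passed the threshold, whereas *Axin2* and *Col15a1* did not. The diet difference of *Ret* had an SE of 0.056 at day 10 and of 0.056 at day 28, against 0.19 at day 5, so that fit gave it a smaller error than the day 5 arrays alone.

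*Eya1*, a transcriptional coactivator that progenitors need, was at 7.19, 7.03, 7.03, 6.996 and 7.34 on the D5-LP arrays, against 7.24, 7.39, 7.37, 7.85 and 7.67 on the D5-CN arrays (−0.39 ± 0.11, SE). It differed by −0.47 without D5-CN arrays 2 and 3 and by −0.22 without D5-CN arrays 4 and 5. Of the 29 progenitor and induction genes measured, 4 were lower (13.8%) and 2 higher (6.9%) at an unadjusted p under 0.05. Besides *Eya1*, the lower ones at that p were the Notch target *Hey1* (−0.39 ± 0.11), the growth factor of renal vesicles *Fgf8* (−0.33 ± 0.12) and the patterning gene *Hoxd11* (−0.24 ± 0.08). The 2 higher ones were *Irx2* (0.28 ± 0.06), a homeobox gene of the early tubule, and *Crym* (0.20 ± 0.08). *Hoxd11* was at 5.12, 5.02, 4.95, 5.13 and 5.13 on the D5-LP arrays, against 5.23, 5.30, 5.59, 5.30 and 5.15 on the D5-CN arrays, without overlap. In the list as a whole 12 of 29 members lay above 0, with a median of −0.02. Without D5-CN arrays 2 and 3 the median was −0.08 with 6 members lower and 2 higher, and without D5-CN arrays 4 and 5 it was 0.04 with 4 lower and 4 higher. The signal GDNF itself differed little, by 0.07 (*Gdnf*).

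Basement membrane and matrix genes lay mostly above 0. Of 23 basement membrane genes measured, 20 lay above 0 and 5 were higher (21.7%) and 0 lower at an unadjusted p under 0.05, with a median of 0.14. All 7 collagen genes of this group lay above 0, from 0.08 for *Col4a5* to 0.37 for the brightest probe set of *Col15a1*. *Lama2*, a laminin of mesenchymal basement membranes, was at 8.78, 8.53, 8.58, 8.64 and 8.53 on the D5-LP arrays, against 8.32, 8.24, 8.39, 8.46 and 8.50 on the D5-CN arrays (0.23 ± 0.07, SE, without overlap). *Lama5*, the laminin of the mature glomerular basement membrane, differed by 0.28 ± 0.09, *Lamb3* by 0.26 and the linker *Nid2* by 0.18 ± 0.06. The dimmer probe sets of *Lama5* each differed by −0.10.

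Of 53 interstitial matrix genes measured, 15 were higher (28.3%) and 0 lower at an unadjusted p under 0.05, and 41 lay above 0, with a median of 0.11. The differences ran from −0.72 to 0.32, so the widest of the list was below 0, in a gene that did not reach that p. *Sparc*, a collagen-binding glycoprotein, was at 12.33, 12.32, 12.39, 12.14 and 12.29 on the D5-LP arrays, against 11.82, 11.89, 12.04, 12.13 and 11.97 on the D5-CN arrays (0.32 ± 0.07, SE, adjusted p = 0.345). The groups did not overlap, though D5-LP array 4 and D5-CN array 4 nearly met. *Col1a2*, a chain of type I collagen, differed by 0.32 ± 0.09, the adhesion protein *Tgfbi* by 0.28 ± 0.07, tenascin C (*Tnc*) by 0.28 ± 0.09, fibronectin (*Fn1*) by 0.23 ± 0.06 and decorin (*Dcn*) by 0.16 ± 0.05. Enzymes that crosslink or cut the matrix were among them, namely *Loxl2* (0.30), *Lox* (0.26) and *Mmp14* (0.18). These lists too leaned on the control arrays 2 and 3. Without them 8 matrix genes were higher and the median was 0.03, and without D5-CN arrays 4 and 5 the count was 30 and the median 0.20. For the basement membrane the medians were 0.04 and 0.19.

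Of 39 endothelial genes measured, 36 lay above 0, 12 were higher (30.8%) and 0 lower at an unadjusted p under 0.05, and the median was 0.14. The transcription factor *Erg* was at 7.69, 7.71, 7.89, 7.66 and 7.53 on the D5-LP arrays, against 7.39, 7.19, 7.16, 7.51 and 7.49 on the D5-CN arrays (0.35 ± 0.09, SE, adjusted p = 0.373). The angiopoietin receptor *Tek* was at 9.92, 9.74, 9.90, 9.76 and 9.72 on the D5-LP arrays, against 9.68, 9.41, 9.31, 9.58 and 9.58 on the D5-CN arrays (0.30 ± 0.08, SE). *Esm1*, a proteoglycan of growing vessels, was at 7.65, 7.71, 8.01, 7.87 and 7.64 on the D5-LP arrays, against 7.59, 7.30, 6.86, 7.49 and 7.49 on the D5-CN arrays (0.43 ± 0.13, SE). None of these 3 overlapped between the groups, and in each the lowest control arrays were 2 and 3. *Mcam* (0.26 ± 0.07), the VEGF receptor *Kdr* (0.22 ± 0.08), *Sox17* (0.27 ± 0.09) and the ligand *Angpt2* (0.19 ± 0.06) were further members. The dimmer probe sets of *Sox17*, an endothelial transcription factor, differed by 0.37 and −0.13. *Tek* differed by 0.20, *Esm1* by 0.25 and *Kdr* by 0.10 without D5-CN arrays 2 and 3. The mean of the list was 0.04 to 0.16 on the D5-LP arrays and −0.25 to 0.02 on the D5-CN arrays, less its mean over all 10. Without D5-CN arrays 2 and 3 its median was 0.05 with 5 members higher, and without D5-CN arrays 4 and 5 it was 0.22 with 22 higher. Of 22 genes of mural and stromal cells, 20 lay above 0 and 4 were higher (18.2%). They were the stromal factor *Alx1* (0.34 ± 0.09), the platelet-derived growth factor receptor *Pdgfra* (0.25 ± 0.07), *Mcam* and the smooth muscle protein *Tagln* (0.24 ± 0.09). The count was 3 without D5-CN arrays 2 and 3 and 8 without D5-CN arrays 4 and 5.

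**Figure D3:**
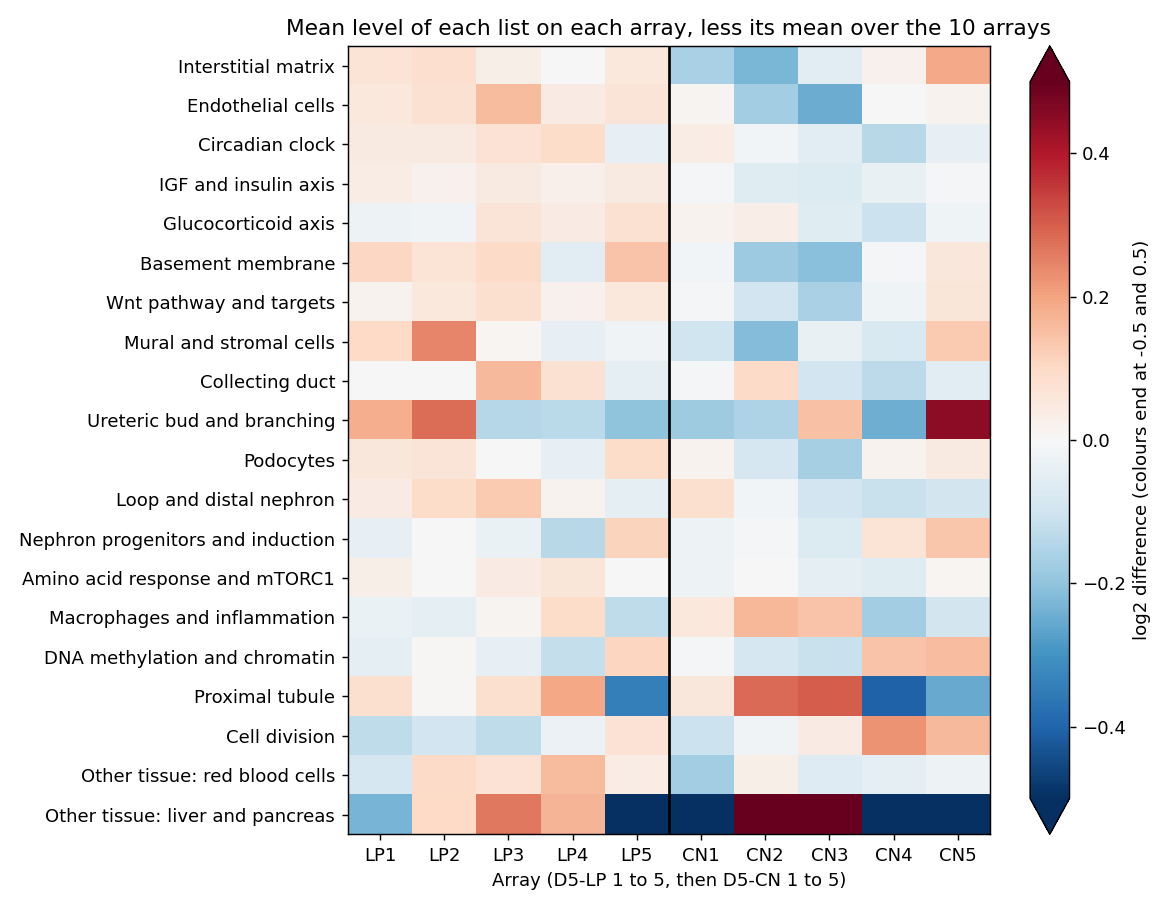
Mean log2 level of each list on each array, less its mean over the 10 arrays (colour, ending at −0.5 and 0.5), with D5-LP arrays 1 to 5 left of the line and D5-CN arrays 1 to 5 right of it. Endothelial genes are low on D5-CN arrays 2 and 3 (−0.17 and −0.25), where the proximal tubule (0.28 and 0.30) and the liver list (1.44 and 1.22) are high, and cell division genes are high on D5-CN arrays 4 and 5 (0.23 and 0.16).

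Cell division genes lay mostly below 0. Of 65 genes measured, 15 were lower (23.1%) and 1 higher (1.54%) at an unadjusted p under 0.05, 9 lay above 0, and the median was −0.14. None of the 15 cyclins and kinases and none of the 21 genes of the spindle and chromosomes lay above 0, with medians of −0.21 in both, whereas the 20 DNA replication genes had a median of −0.05. *Birc5*, the survivin of the chromosomal passenger complex, was at 8.11, 8.28, 8.14, 8.39 and 8.62 on the D5-LP arrays, against 8.48, 8.49, 8.54, 8.85 and 8.69 on the D5-CN arrays (−0.30 ± 0.10, SE, adjusted p = 0.545). The cyclin *Ccna2*, which acts in S and G2 phase, differed by −0.28 ± 0.10, the activator of the anaphase-promoting complex *Cdc20* by −0.25 ± 0.09, *Mcm10*, which loads the replication fork, by −0.24 ± 0.07, cyclin F (*Ccnf*) by −0.21 ± 0.07 and the spindle motor *Kif11* by −0.20 ± 0.07. The 4 dimmer probe sets of *Cdc20* differed by −0.13 to −0.02 and that of *Kif11* by −0.04. No lower member had all LP arrays below all CN arrays. The 1 higher member was the kinase inhibitor *Cdkn1c* (p57), at 12.76, 12.70, 12.88, 12.61 and 12.62 on the D5-LP arrays, against 12.59, 12.29, 12.08, 12.33 and 12.51 on the D5-CN arrays (0.35 ± 0.09, SE, adjusted p = 0.398). It did not overlap between the groups. Unlike the vessel and matrix lists, this one leaned on D5-CN arrays 4 and 5. Without them its median was −0.05 with 2 members lower, and without D5-CN arrays 2 and 3 it was −0.17 with 13 lower.

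Promoters of mitotic genes share the CCAAT box (CCAAT), bound by NF-Y, and the cell cycle homology region (CHR, TTTGAA), bound by the complexes that time mitotic transcription. A pair of lower members is shown with both motifs in capitals, from RefSeq (GRCr8), up to the gene start on the strand of the gene. Both strands were searched, and TTTGAA also lies within CTTTGAA.
Cdc20, chr5:137255800-137255899, minus strand: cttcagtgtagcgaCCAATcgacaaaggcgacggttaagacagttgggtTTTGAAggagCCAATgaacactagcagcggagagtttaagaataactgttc
Ccnf, chr10:13783670-13783889, minus strand: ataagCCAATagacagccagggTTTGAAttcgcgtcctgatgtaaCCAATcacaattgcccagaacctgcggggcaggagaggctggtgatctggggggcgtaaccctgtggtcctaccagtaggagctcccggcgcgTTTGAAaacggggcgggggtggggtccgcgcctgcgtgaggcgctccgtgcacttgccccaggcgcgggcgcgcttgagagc
In *Cdc20* the CHR begins 51 bases before the start, between CCAAT boxes that begin 86 and 41 bases before it. Of 58 promoters found for the list, 36 held a CCAAT box (62.1%), against 34.0% of all 33469 promoters, and 17 held a CHR (29.3%), against 16.2%. Of the 12 found for the 16 members at an unadjusted p under 0.05, 11 held a CCAAT box and 7 a CHR. These members were picked by their values, and their promoters are a description.

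Genes of the circadian clock, mostly its core repressors, were next. Of 24 clock genes measured, 7 were higher (29.2%) and 0 lower at an unadjusted p under 0.05, 5 of them among the 9 repressors. *Nr1d1* (REV-ERB alpha), which represses *Bmal1*, was at 5.60, 5.62, 5.99, 5.63 and 5.54 on the D5-LP arrays, against 5.29, 5.08, 5.31, 4.99 and 5.45 on the D5-CN arrays (0.45 ± 0.10, SE, adjusted p = 0.345), without overlap. Its relative *Nr1d2* differed by 0.26 ± 0.09, the period genes *Per1* and *Per3* by 0.27 ± 0.09 and 0.29 ± 0.11, and the cryptochrome *Cry2* by 0.18 ± 0.07. *Rora*, which activates the same sites that REV-ERB represses, differed by 0.26 ± 0.10. Each of these 5 overlapped between the groups. The list median was 0.06 with all arrays, 0.11 without D5-CN arrays 2 and 3 and 0.04 without arrays 4 and 5. The counts were less stable, with 5 higher and 0 lower without arrays 2 and 3, 3 higher and 1 lower without arrays 4 and 5, and 2 of the 9 repressors higher in either case. Whether kidneys of both groups were taken at the same hour is not known.

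Of 23 genes of the glucocorticoid axis, 6 were higher (26.1%) and 1 lower (4.35%) at an unadjusted p under 0.05, while only 12 lay above 0. The mineralocorticoid receptor *Nr3c2*, which binds aldosterone and cortisol or corticosterone, was at 8.65, 8.69, 8.66, 8.67 and 8.46 on the D5-LP arrays, against 8.50, 8.37, 8.10, 8.31 and 8.23 on the D5-CN arrays (0.32 ± 0.08, SE, adjusted p = 0.347). Only D5-LP array 5 and D5-CN array 1 met, and *Nr3c2* passed the threshold in the fit of all 30 arrays (adjusted p = 0.166). The mTORC1 brake *Ddit4* differed by 0.37 ± 0.10, the MAP kinase phosphatase *Dusp1* by 0.31 ± 0.11 and the metallothionein *Mt1* by 0.22 ± 0.06. *Hsd11b2*, which shields the mineralocorticoid receptor from corticosterone, differed by 0.17. *Lcn2* differed by −0.21. The counts were 5 higher and 1 lower without D5-CN arrays 2 and 3, and 5 higher and 4 lower without D5-CN arrays 4 and 5. In the IGF and insulin axis, 7 of 27 genes were higher (25.9%) and 0 lower. They included the binding proteins *Igfbp5* (0.26 ± 0.08) and *Igfbp3* (0.24 ± 0.09), which hold IGF in the matrix and in blood, the transcription factor *Foxo1* (0.26 ± 0.09) and *Klf15* (0.21 ± 0.08). The mean of this list did not overlap, at 0.02 to 0.05 on the D5-LP arrays and −0.07 to −0.0050 on the D5-CN arrays, less the mean over all 10. Its count of higher members was 5 both without D5-CN arrays 2 and 3 and without D5-CN arrays 4 and 5, with 1 lower in the second case. Of 29 genes of the amino acid response and mTORC1, 2 were higher (6.9%), a share near that of all genes, and none of its 17 amino acid response genes was.

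**Figure D4:**
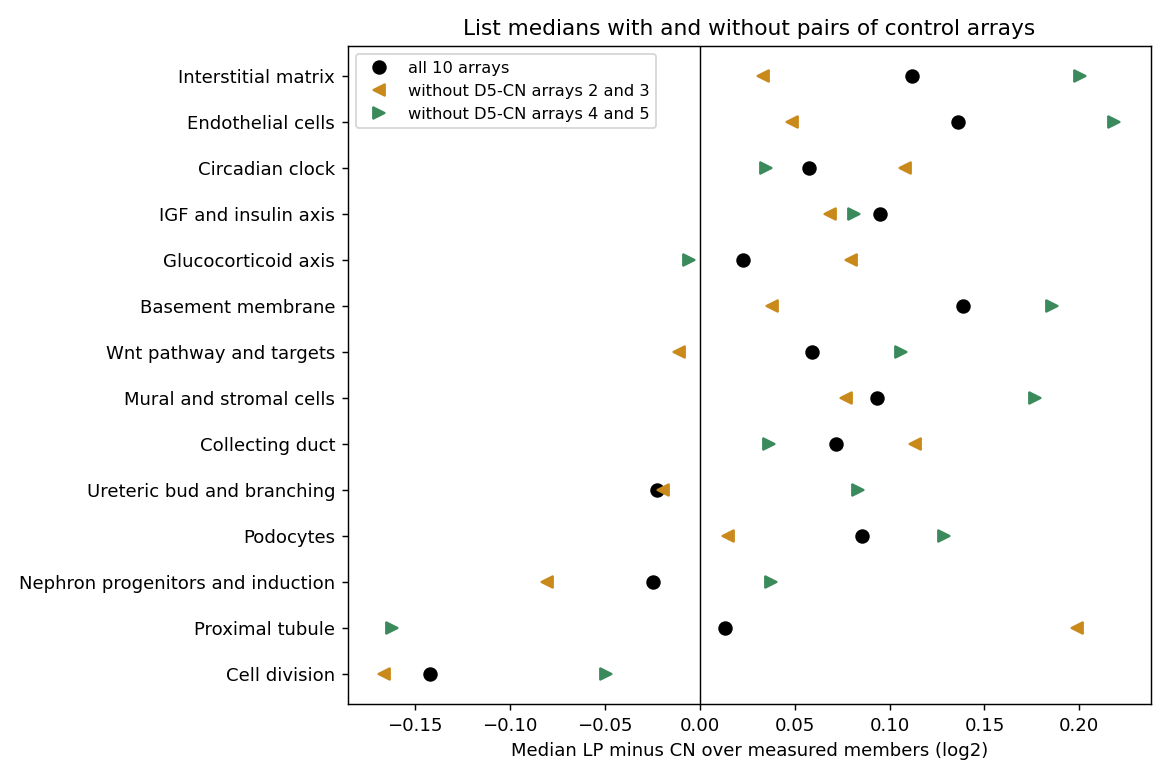
Median LP minus CN difference (log2, horizontal axis) over the measured members of 14 gene lists from all 10 arrays (black), without D5-CN arrays 2 and 3 (orange) and without D5-CN arrays 4 and 5 (green). The endothelial median is 0.14, 0.05 and 0.22, the cell division median −0.14, −0.17 and −0.05, and the proximal tubule median changes sign, at 0.01, 0.20 and −0.16.

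Among the mature nephron segments, in the loop and distal nephron 3 of 28 genes were higher (10.7%), in the collecting duct 4 of 24 (16.7%, with 1 lower) and in podocytes 2 of 18 (11.1%). Without D5-CN arrays 2 and 3 these counts were 5 in the loop and distal nephron, 6 in the collecting duct and 1 in podocytes, with 1, 1 and 0 lower, and without D5-CN arrays 4 and 5 they were 4, 4 and 5, with 1, 3 and 0 lower. The calcium-sensing receptor *Casr* was at 9.43, 9.45, 9.59, 9.35 and 9.45 on the D5-LP arrays, against 9.34, 9.15, 9.07, 9.19 and 9.21 on the D5-CN arrays (0.26 ± 0.06, SE, adjusted p = 0.347), without overlap. The prostaglandin E2 receptor *Ptger3* of the thick limb differed by 0.33 ± 0.09 (0.08 at a dimmer probe set) and the calcium pump *Atp2b1* by 0.20 ± 0.06. In the collecting duct, the principal cell factor *Elf5* differed by 0.29 ± 0.09 and aldose reductase (*Akr1b1*) by 0.31 ± 0.12, whereas *Foxi1*, the master factor of intercalated cells, differed by −0.21 ± 0.08. A dimmer probe set of *Akr1b1* differed by 0.02. In podocytes the actin crosslinker *Actn4* was at 10.68, 10.60, 10.66, 10.60 and 10.53 on the D5-LP arrays, against 10.42, 10.37, 10.29, 10.33 and 10.53 on the D5-CN arrays (0.23 ± 0.06, SE). The slit diaphragm gene *Nphs1* differed by 0.22 ± 0.10, and by 0.29 ± 0.06 at a dimmer probe set. In the proximal tubule 0 of 39 genes were higher and 1 was lower, *Cyp27b1* (−0.44 ± 0.17), the enzyme that activates vitamin D. The sign of the median of the proximal tubule list depended on which control arrays were left out, at 0.20 with 37 of 39 members above 0 without D5-CN arrays 2 and 3, and at −0.16 with 1 of 39 above 0 without arrays 4 and 5. The counts at an unadjusted p under 0.05 were 4 higher and 0 lower in the first case and 0 higher and 9 lower in the second.

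The study chose 6 candidate genes from the expression and methylation of pup kidneys at day 28. They are therefore not independent of this series, although day 5 kidneys were not part of that choice. All 6 lay above 0 at day 5, 1 of them at an unadjusted p under 0.05, although *Kank3* took the other sign under 3 other scalings or weightings of the arrays. *Proser2* was at 8.14, 8.18, 8.41, 8.26 and 8.20 on the D5-LP arrays, against 8.05, 7.78, 7.68, 8.04 and 7.93 on the D5-CN arrays (0.34 ± 0.08, SE, adjusted p = 0.347), without overlap. *Ptger1*, a receptor of prostaglandin E2, was at 5.56, 5.43, 5.69, 5.63 and 5.17 on the D5-LP arrays, against 5.32, 5.17, 4.91, 5.45 and 5.38 on the D5-CN arrays (0.25 ± 0.12, SE, adjusted p = 0.613). The groups overlapped, and its difference was 0.11 without D5-CN arrays 2 and 3. A dimmer probe set of *Ptger1* differed by 0.02. *Tbx3* differed by 0.26 ± 0.13, *Gnas* by 0.07 ± 0.06, *Runx1* by 0.05 ± 0.11 and *Kank3* by 0.01 ± 0.07. Of the 24 genes of the renin-angiotensin and prostanoid systems, 3 were higher (12.5%), all of them prostanoid genes, and none of the 9 renin-angiotensin genes was.

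Transcripts of red blood cells differed as well. Of 10 red cell genes measured, 4 were higher (40.0%). *Alas2* was at 8.66, 9.06, 8.62, 8.87 and 8.75 on the D5-LP arrays, against 8.06, 8.39, 8.37, 8.35 and 8.42 on the D5-CN arrays (0.47 ± 0.09, SE, adjusted p = 0.345). The globin gene *Hbb* was at 13.50, 13.58, 13.46, 13.53 and 13.60 on the D5-LP arrays, against 13.04, 13.37, 13.23, 13.28 and 13.42 on the D5-CN arrays (0.27 ± 0.07, SE), also without overlap. *Hba-a3* differed by 0.21 ± 0.08 and the anion exchanger *Slc4a1*, which intercalated cells also carry, by 0.32 ± 0.13. Other genes of red cell precursors had smaller differences than *Alas2*, with *Klf1* at 0.01, *Ahsp* at −0.04 and *Tfrc*, which all dividing cells need, at −0.19. The count of the list was 3 without D5-CN arrays 2 and 3 and 4 without D5-CN arrays 4 and 5. The log2 of the summed level of the list was 13.96 to 14.11 on the D5-LP arrays and 13.62 to 13.99 on the D5-CN arrays. How much of the endothelial or other differences goes with blood left in the kidney was not tested.

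Of 28 inflammation genes, 13 lay above 0 and the median was −0.00038, but this value differed with the control arrays used. Without D5-CN arrays 2 and 3 the median was 0.03 with 1 member higher and 2 lower, and 0.20 over the 14 macrophage genes. Without D5-CN arrays 4 and 5 it was −0.11 with 2 higher and 9 lower, and −0.12 over the macrophage genes. Lower were *Ccl2* and *Il1b*, at 5.82, 5.67, 5.69, 5.86 and 5.995 on the D5-LP arrays, against 6.14, 6.82, 6.72, 5.99 and 6.01 on the D5-CN arrays (−0.53 ± 0.16, SE, adjusted p = 0.468). The high values of *Il1b* were again those of D5-CN arrays 2 and 3, without which it differed by −0.24, whereas *Ccl2* differed by −0.43 without them. *Cd74*, the chaperone of MHC class II, differed by 0.27 ± 0.08. Of 17 interferon-stimulated genes, 2 were higher (11.8%), namely *Rsad2* (0.47 ± 0.11), which did not overlap, and *Ifit2* (0.28 ± 0.10). The adhesion molecule *Vcam1* of the tubular injury list differed by 0.32 ± 0.07, without overlap, and the early response factor *Klf6* by 0.39 ± 0.11. Dimmer probe sets of *Klf6* differed by 0.03 and 0.18.

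Of 16 genes of DNA methylation and chromatin, 3 were lower (18.8%) and 1 higher (6.25%). The de novo methyltransferase *Dnmt3a* differed by 0.30 ± 0.12, its relative *Dnmt3b* by −0.13 ± 0.06, the Polycomb subunit *Suz12* by −0.20 ± 0.08 and *Tet1*, which oxidizes 5-methylcytosine, by −0.20 ± 0.08. All 4 overlapped between the groups, and the counts were 6 lower and 0 higher without D5-CN arrays 2 and 3 and 1 lower and 1 higher without D5-CN arrays 4 and 5. Among 13 imprinted growth genes the maternally expressed *Cdkn1c* was the 1 higher and *H19* the 1 lower (−0.29 ± 0.09). *H19* was at 11.11, 11.12, 11.15, 10.99 and 11.37 on the D5-LP arrays, against 11.21, 11.49, 11.39, 11.44 and 11.67 on the D5-CN arrays. Only D5-LP array 5 lay within the range of the controls.

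Lists of general cell functions showed few single genes past an unadjusted p of 0.05. None of 38 respiratory chain genes was, with differences of −0.09 to 0.08, none of 28 ribosomal protein genes was, although 27 of these lay below 0 with a median of −0.04, and none of the 17 sterol and fatty acid synthesis genes or 18 fatty acid oxidation genes was. The proteasome had 1 lower of 28, splicing factors 2 lower of 32, chaperones 1 lower of 20 and antioxidant enzymes 1 higher of 17. Signs in some of these lists depended on the control arrays used. Without D5-CN arrays 2 and 3, 31 of 38 respiratory chain genes and 17 of 18 fatty acid oxidation genes lay above 0, with 0 and 3 higher. Without D5-CN arrays 4 and 5, 5 of each list lay above 0, with 3 and 1 lower. Of the 32 splicing factors, 3 and 19 lay above 0 in these settings, with 4 and 0 lower. In the hypoxia and glycolysis list 3 of 23 were higher (13.04%) and among immediate early genes 2 of 22 (9.09%). The adrenal, adipose and skeletal muscle lists had none in either direction, and the liver list had none, though the log2 of its summed level ranged from 9.20 to 11.25 on the D5-LP arrays and from 9.12 to 13.12 on the D5-CN arrays.

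At the later ages some of these differences were near 0 and others were of the day 5 size. *Axin2* differed by 0.04 ± 0.28 (SE) at day 10 and by 0.41 ± 0.21 at day 28, and *Col15a1* by 0.07 ± 0.23 and 0.04 ± 0.15. *Ret* differed by 0.02 ± 0.06 and 0.00 ± 0.06, and *Ccl2* by 0.06 at day 10 and 0.80 at day 28, opposite to day 5. *Phactr1* differed by 0.60 at day 5, 0.48 at day 10 and 0.46 at day 28, and *Il1b* by −0.53, −0.53 and −0.35. The median of the cell division list was −0.14 at day 5, 0.01 at day 10 and −0.16 at day 28, and that of the endothelial list was 0.14, −0.05 and 0.09. Whether the diet difference itself changed with age was tested by limma in a fit of all 30 arrays, and none of the 31042 probe sets (0.0%) passed an adjusted p of 0.2, either for day 5 less day 10 (1441 at an unadjusted p under 0.05) or for day 5 less day 28 (1349). The smallest p in the first contrast belonged to *Suv39h2* (−0.53 ± 0.12, SE), *Fbxo45* (−0.30 ± 0.07), *Rrp8* (−0.73 ± 0.17), *Ret* (−0.79 ± 0.19) and *Sox17* (0.38 ± 0.09), each with an adjusted p of 0.787. In the second they belonged to *2610008E11Rikl* (0.61 ± 0.13), *Lrrc8b* (0.53 ± 0.12), *Uap1l1* (0.42 ± 0.09), *Wnt11* (0.52 ± 0.12) and *Sox17* (0.40 ± 0.09), each with an adjusted p of 0.653. A missed threshold does not show that the diet acted alike at the 3 ages.

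**Figure D5:**
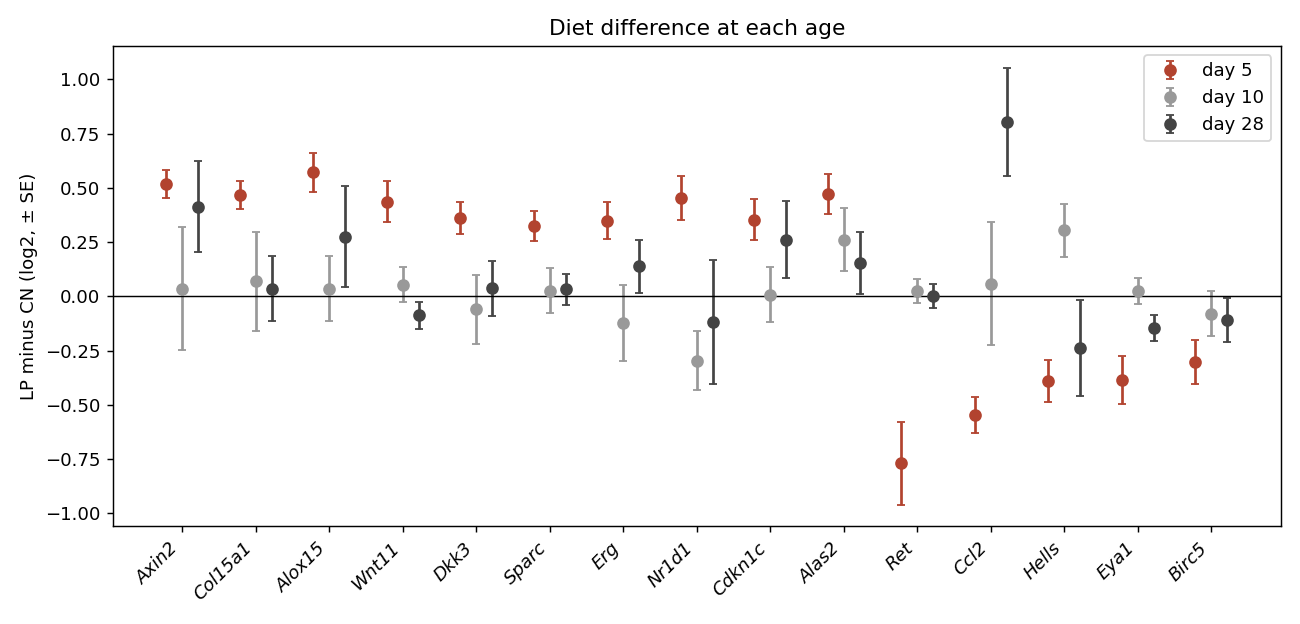
LP minus CN difference (log2, ± SE) of 15 genes at day 5 (red), day 10 (grey) and day 28 (black). *Ret* is at −0.77 on day 5 and near 0 on the later days, *Axin2* is at 0.52, 0.04 and 0.41, and *Ccl2* is at −0.55 on day 5 and 0.80 on day 28.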

How the data were processed

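Total kidney RNA was hybridised to Affymetrix rat genome arrays. The authors processed the scans in R 3.3.2, and the values they deposited, summarised with qFARMS (a factor analysis of the probes of a probe set), are on a log2 scale, 1 per probe set and array, with no counts, so that depth is unknown and precision is set by how many arrays there are. Of 31099 probe sets, 57 controls were left out and 31042 were tested; 20826 of all carried 1 gene symbol in the platform annotation. The 5 D5-LP and 5 D5-CN arrays were compared with limma 3.58.1 (R 4.3.3) without covariates, with Benjamini-Hochberg adjustment over all probe sets and the study's threshold of 0.2, and with exact permutation tests over the 252 ways to part 10 arrays into 5 and 5. A fit of all 30 arrays gave the contrasts between ages. The text names the called genes, the 15 with the smallest p and the 8 with the largest difference in each direction, up to 6 members of each of 38 lists, the study's candidates and the top 5 genes of each contrast. The members and lists were chosen with earlier results of these data known. Alternatives were other normalizations, variance priors and array weights, rank products (the method of the study), a t-test across probe sets, a replicate block and arrays left out. Scripts were tested on simulated data. A further table of 30 columns with no sample names was not used. Promoters came from RefSeq (GRCr8).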

Additional observations from a re-analysis of the deposited data

Results flagged for a closer look

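Of 246 sets of 5 arrays, 5 (2.03%) held 1 array far from the other 4, where chance gives about 1 in 20. *Suv39h2* was at 5.30 on D5-LP array 1, against 5.59 to 5.69 on the other D5-LP arrays. *Nr1d1* was at 5.99 on D5-LP array 3, against 5.54 to 5.63. *Nr3c2* was at 8.46 on D5-LP array 5, against 8.65 to 8.69. *Wnt5a* was at 5.87 on D5-CN array 2, against 5.38 to 5.51 on the other D5-CN arrays. *Alas2* was at 8.06 on D5-CN array 1, against 8.35 to 8.42.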

How the results depend on the processing

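The call of 2 probe sets held under quantile normalization, median centring and without dim probe sets. It was 18 with the 3′ minus 5′ difference as a covariate, 11 with array weights, 5 with a trended and 4 with a robust variance prior, 38 in the fit of all 30 arrays, 650 by rank products and 0 by the methods' t-test after adjustment (2538 at an unadjusted p under 0.05). With 1 array left out it ranged from 0 to 67, without D5-CN arrays 2 and 3 it was 0 (2658 at an unadjusted p under 0.05) and without D5-CN arrays 4 and 5 it was 191. Probe sets at an unadjusted limma p under 0.05 numbered 2541, 4284 without D5-CN arrays 4 and 5, and 1530 to 2954 with 1 array left out. Arrays of the same replicate number had deviations from their group means that correlated at −0.41 to 0.35. These correlations cannot tell whether the numbers pair litters or batches. The replicate block called neither *Axin2* (adjusted p = 0.339) nor *Col15a1* (adjusted p = 0.424) and 1 other probe set, which was lower, at day 5, 2 for day 5 less day 10 and 1 for day 5 less day 28. These contrasts called 0 to 3 and 0 to 2 with 1 array left out, and 0 and 3 without D5-CN arrays 2 and 3. Of 123 genes, 2 changed sign. Most of the 123 were named for a small p or a large difference on these same arrays, so their signs had little room to change. The 2 that changed were among the study's candidates. *Kank3* was at −0.0094 with array weights, −0.011 with median centring, −0.018 with quantile normalization and −0.053 without D5-CN arrays 2 and 3, and between −0.031 and 0.057 with 1 array left out. *Runx1* was between −0.029 and 0.13 with 1 array left out. Of 38 list medians, 19 changed sign under 1 or more settings. The causes were not tested.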
